A study of Mus musculus with 12 samples.

Results

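Cxcl1, Cxcl2, Cxcl3, Cxcl9, Cxcl10, Cxcl12, Cxcl13 and Cxcl16, 8 CXC chemokine genes among the 52636 genes counted, were followed through 12 bulk RNA libraries of mouse lung Cx3cr1+ macrophages. They were selected by symbol, each symbol matched 1 gene, and all 8 passed the filter on low counts that left 16679 genes for testing. The libraries form 3 groups of 4: bleomycin-treated mice labelled IL4Ra KO (bleomycin KO), bleomycin-treated mice labelled IL4Ra WT (bleomycin WT) and saline-treated mice labelled IL4Ra WT (saline WT). Bleomycin injures the lung and is used to induce fibrosis, and Il4ra encodes a receptor subunit through which IL-4 and IL-13 both signal. All the cells carry the Cx3cr1+ macrophage description of the series. The sources used here do not give the promoter that drives any recombinase, the strain, age or sex of the mice, the time after bleomycin, or the number of animals behind a library. Nor do they say that the libraries of a group come from separate animals, so a p-value covers the spread between libraries only, and that spread may be technical. A saline group with the deletion was not analysed here.

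CXC chemokines are small secreted or membrane-tethered proteins that steer leukocytes through G protein-coupled receptors. CXCL1, CXCL2 and CXCL3 act on CXCR2 and draw neutrophils, and macrophages make them after signals that act through NF-kB. CXCL9 and CXCL10 are induced by interferons, act on CXCR3 and draw activated T cells and NK cells. CXCL12 acts on CXCR4 and ACKR3 and retains and positions leukocytes, CXCL13 acts on CXCR5 and places B cells in follicles, and CXCL16 is a transmembrane chemokine and scavenger receptor that binds CXCR6.

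In GRCm38 the neutrophil-attracting genes lie close together on chromosome 5, on the + strand, at chr5:90891241-90893115 for Cxcl1, chr5:90903871-90905938 for Cxcl2 and chr5:90786103-90788093 for Cxcl3. Cxcl9 (chr5:92321347-92328079) and Cxcl10 (chr5:92346638-92348889) lie close together on the − strand of the same chromosome, which also holds Cxcl13 (chr5:95956951-95961068, + strand). Cxcl12 is at chr6:117168535-117181367 on the + strand and Cxcl16 at chr11:70453983-70459984 on the − strand. Each of the 8 is annotated as protein coding, and the counts cover all exons of a gene, untranslated parts included.

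The sequences upstream of Cxcl1, Cxcl2, Cxcl3, Cxcl9 and Cxcl10 are shown because they let the neutrophil-attracting and the interferon-induced ligands be compared letter by letter; Cxcl9 is shown beside its neighbour Cxcl10. RefSeq windows (GRCm38.p6) were matched by symbol for 7 of the 8 genes, all but Cxcl16. The 250 bases before the start were searched on both strands for an NF-kB motif (GGG, any 2 bases, then TTTCC), an interferon-stimulated response element (ISRE; GAAA, any 2 bases, then GAAA) and a gamma-activated site (GAS, TTCNNNGAA). Capitals mark the matches to the NF-kB motif in Cxcl1, Cxcl2 and Cxcl3 and the match to the ISRE in Cxcl10. The stretches run 5′ to 3′ along the gene's own strand and end 31 bases before the start.
Cxcl1 chr5:90890995-90891214 (+ strand): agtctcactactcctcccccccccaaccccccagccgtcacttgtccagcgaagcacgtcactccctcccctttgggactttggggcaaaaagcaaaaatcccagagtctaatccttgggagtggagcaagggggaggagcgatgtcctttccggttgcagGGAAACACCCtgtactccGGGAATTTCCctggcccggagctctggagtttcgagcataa
Cxcl2 chr5:90903649-90903868 (+ strand): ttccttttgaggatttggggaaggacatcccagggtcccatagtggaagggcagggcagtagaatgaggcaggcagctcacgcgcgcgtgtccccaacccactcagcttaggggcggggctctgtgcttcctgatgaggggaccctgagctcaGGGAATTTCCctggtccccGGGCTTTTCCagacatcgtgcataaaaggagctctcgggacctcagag
Cxcl3 chr5:90785851-90786070 (+ strand): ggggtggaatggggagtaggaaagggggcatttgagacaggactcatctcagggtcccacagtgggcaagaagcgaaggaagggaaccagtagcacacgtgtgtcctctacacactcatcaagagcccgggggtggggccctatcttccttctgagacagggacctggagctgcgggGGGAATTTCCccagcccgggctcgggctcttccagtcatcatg
Cxcl9 chr5:92328110-92328329 (− strand): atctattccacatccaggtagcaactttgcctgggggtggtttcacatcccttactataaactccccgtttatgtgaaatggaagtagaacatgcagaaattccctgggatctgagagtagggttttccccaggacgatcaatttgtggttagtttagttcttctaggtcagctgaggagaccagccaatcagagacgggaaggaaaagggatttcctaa
Cxcl10 chr5:92348920-92349139 (− strand): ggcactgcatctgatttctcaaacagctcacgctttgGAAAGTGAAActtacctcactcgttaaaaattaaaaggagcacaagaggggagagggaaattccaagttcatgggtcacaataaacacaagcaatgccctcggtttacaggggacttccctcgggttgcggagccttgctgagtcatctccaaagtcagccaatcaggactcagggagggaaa
The sequence GGGAATTTCC stood in all 3 neutrophil-attracting genes, beginning 71 bases before the start in Cxcl1, 97 in Cxcl2 and 73 in Cxcl3. Cxcl1 had a further NF-kB match at 89 bases, read on the opposite strand, and Cxcl2 had one at 78 bases. The other 4 genes with a window had no match to this form of the NF-kB motif, and 1.41% of the 32851 windows of that length in the table held one. Other forms were not searched. The Cxcl10 stretch holds the near letters GGGAAATTCC, which this form leaves out, so the search does not show that Cxcl10 lacks NF-kB sites. Cxcl10 was the only one of the 7 with an ISRE match, beginning 213 bases before its start, and 2.98% of all windows held one. None of the 7 held the GAS letters, which stood in 7.02% of windows. The matches describe letters in these windows, and binding was not measured.

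Total counts ran between 60598 and 18051113 per library, and saline WT 2 had the lowest total, with counts for 4830 genes. In that library 3 counts equal 32.4 CPM (counts per 1e6 of TMM-scaled library size), against 0.185 to 0.730 CPM in the other 11. Bleomycin WT 4 had a TMM factor of 0.579 and was the lowest library of its group for 8 of the 8 chemokines. Chemokine results that change without these 2 libraries are also given without them, and so are the means of other named genes that either library moves by more than 1.5 times (a choice made after seeing the data). A 0 in saline WT 2 moves a saline mean by 1.33 times, under that limit. The rule thus passes over genes at 0 there, such as Il1a, Cxcr2 and Nkg7, whose saline means include that library. The macrophage markers Csf1r, Adgre1 and Cd68 had counts in every library, while Mertk and Siglecf had 0 in saline WT 2. Csf1r averaged 1494 ± 268, 1328 ± 948 and 1528 ± 512 CPM in bleomycin KO, bleomycin WT and saline WT. Bleomycin WT 4 was low for Csf1r at 273 CPM, against 1242, 2579 and 1220 CPM in bleomycin WT 1 to 3. For Adgre1 it stood at 680 CPM, inside the range of its group, and for Cd68 it was the highest library, at 4718 CPM. Cx3cr1 itself averaged 97.3 ± 16.1 CPM in bleomycin KO and 57.0 ± 43.3 CPM in bleomycin WT, against 343 ± 401 CPM in saline WT. Saline WT 2 stood at 940 CPM of Cx3cr1, from 87 counts, and the other 3 saline libraries at 196, 136 and 98.1 CPM. Bleomycin WT 4 stood at 7.46 CPM of Cx3cr1, and bleomycin WT 1 to 3 at 53.5, 113 and 53.7 CPM. Il4ra averaged 332 ± 104 CPM in bleomycin KO and 355 ± 203 CPM in bleomycin WT, and the difference on the log2 scale was -0.09 ± 0.58 (SE; adjusted p = 0.9998 in edgeR). The whole-gene count thus did not set the KO label apart, and it does not show which exons the reads came from. KO below therefore means the libraries labelled KO. Values with ± are means and SD of 4 libraries unless SE is written.

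Cxcl2 was the most abundant of the 8 chemokines per kilobase of exon in 11 of 12 libraries, and Cxcl1 was first in saline WT 2. On the RPKM scale (CPM per exonic kilobase), Cxcl2 averaged 1438 ± 138 in bleomycin KO, 971 ± 265 in bleomycin WT and 995 ± 462 in saline WT. Cxcl1 followed at 620 ± 108 RPKM in bleomycin KO, 467 ± 228 RPKM in bleomycin WT and 285 ± 67.0 RPKM in saline WT, and it ranked second in 9 libraries. Cxcl16 came next in the bleomycin groups, at 360 ± 38.1 RPKM in bleomycin KO and 325 ± 24.0 RPKM in bleomycin WT. In saline WT it averaged 180 ± 82.2 RPKM, below Cxcl13 at 230 ± 131 RPKM. Cxcl2, Cxcl1 and Cxcl16 were each above 98% of the genes tested by mean RPKM over the 12 libraries. Cxcl10 ranked 4 or 5 in every library, while Cxcl3, Cxcl9 and Cxcl12 shared the low end. Cxcl12 stood at or below 4.53 RPKM in all 12 libraries, and Cxcl3 at or below 22.0 RPKM. Within a group, Cxcl1 and Cxcl16 overlapped between libraries in bleomycin WT and saline WT but not in bleomycin KO.

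None of the 8 chemokines passed an adjusted p of 0.05 in edgeR's quasi-likelihood test in any comparison. Across all genes tested, 0.0240% passed in bleomycin WT against saline WT, 0% in bleomycin KO against bleomycin WT and 0.0180% in bleomycin KO against saline WT. At an unadjusted p under 0.05 the chemokines numbered 3, 0 and 2 of 8 in these comparisons, against 14.7%, 3.88% and 9.03% of all genes. Without saline WT 2 and bleomycin WT 4, again 0 of 8 passed the adjusted threshold, against 0.431%, 0% and 0.643% of all genes. The 3 comparisons share libraries, since each group serves in 2 of them. In this bulk RNA, fewer cells of a type and less RNA per cell cannot be told apart.

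**Figure D1:**
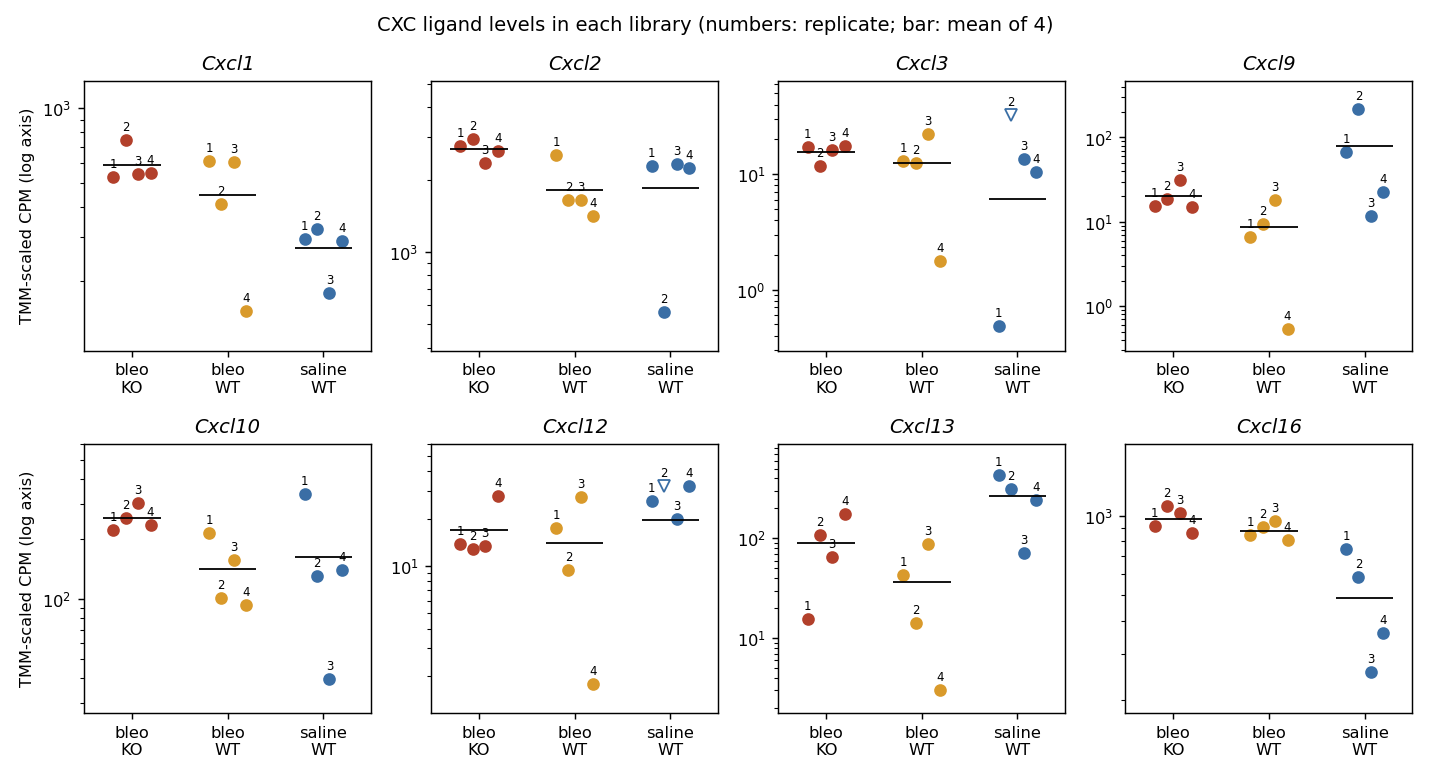
TMM-scaled CPM (log axis) of the 8 CXC chemokines in each of the 12 libraries, by group, bleomycin KO on the left. Numbers are replicates, bars are means of 4 libraries, and open triangles mark a library with 0 counts, drawn at the level of 3 counts. Cxcl16 is at 809 CPM or more in all 8 bleomycin libraries and at 747 CPM or less in all 4 saline libraries.

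Cxcl1, a ligand of CXCR2, was measured at 527, 744, 541 and 549 CPM in bleomycin KO replicates 1 to 4. It stood at 611, 411, 607 and 151 CPM in bleomycin WT, against 295, 324, 179 and 289 CPM in saline WT. All 4 bleomycin KO libraries were above all 4 saline WT libraries, and 3 of 4 bleomycin WT libraries were, with bleomycin WT 4 below the whole saline group. The log2 fold change was 1.13 ± 0.45 (SE) for bleomycin KO against saline WT (unadjusted p = 0.024, adjusted p = 0.478), and 0.24 under upper-quartile scaling. It was 0.72 ± 0.45 for bleomycin WT against saline WT (adjusted p = 0.468), positive under TMM scaling and -0.21 under upper-quartile scaling. Libraries did not overlap in this upward direction for 8.17% of all genes in bleomycin KO against saline WT. Without saline WT 2 and bleomycin WT 4, Cxcl1 did not overlap in either comparison with saline WT, at 1.20 ± 0.25 (adjusted p = 0.0624) for bleomycin KO and 1.07 ± 0.26 (adjusted p = 0.117) for bleomycin WT. No overlap in that direction was found for 8.14% and 10.9% of genes in those fits. Between bleomycin KO and bleomycin WT the log2 fold change was 0.41 ± 0.44 (adjusted p = 0.9998) in 12 libraries and 0.13 ± 0.24 in 10.

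Cxcl2, the other abundant CXCR2 ligand, stood at 2758, 2959, 2348 and 2625 CPM in bleomycin KO. It was at 2524, 1650, 1640 and 1404 CPM in bleomycin WT, against 2288, 562, 2317 and 2234 CPM in saline WT. The saline libraries other than saline WT 2 lay above 3 of the 4 bleomycin WT libraries, and every bleomycin KO library was above every saline WT library. The log2 fold change was 0.57 ± 0.41 (SE) for bleomycin KO against bleomycin WT (adjusted p = 0.9998), where 3 of 4 bleomycin KO libraries exceeded all of bleomycin WT. Without the 2 libraries it was 0.47 ± 0.19 (unadjusted p = 0.028, adjusted p = 0.99993), in a fit where 0.920% of genes had an unadjusted p under 0.05. Against saline WT it was 0.53 ± 0.41 in bleomycin KO (adjusted p = 0.769) and -0.04 ± 0.41 in bleomycin WT (adjusted p = 0.979). Libraries did not overlap in this upward direction for 8.17% of all genes in bleomycin KO against saline WT. Without the 2 libraries the value for bleomycin KO was 0.21 ± 0.18 and the groups overlapped, the lowest bleomycin KO library being at 2382 CPM and the highest saline WT library at 2401.9 CPM in the scaling of those 10 libraries.

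Cxcl3, the remaining CXCR2 ligand among them, was low throughout, at 17.1, 11.7, 16.2 and 17.5 CPM in bleomycin KO. It stood at 13.0, 12.6, 22.3 and 1.78 CPM in bleomycin WT, against 0.486, 0, 13.6 and 10.4 CPM in saline WT. The saline values came from 2 counts in saline WT 1 and 0 in saline WT 2, where the depth allows up to 32.4 CPM, so that library cannot show a difference of this size. The log2 fold change was 1.08 ± 0.92 (SE) for bleomycin KO against saline WT (adjusted p = 0.789) and 0.75 ± 0.91 for bleomycin WT against saline WT (adjusted p = 0.740). For bleomycin KO against bleomycin WT it was 0.33 ± 0.88 (adjusted p = 0.9998) and -0.02 ± 0.72 without the 2 libraries. The sources used here do not say how reads shared by these similar genes were counted.

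Neutrophil markers were unevenly spread over the same libraries. The 13 neutrophil markers summed to between 1230 and 2003 CPM in bleomycin KO, 572 and 1672 CPM in bleomycin WT, and 2679 and 30083 CPM in saline WT, where saline WT 3 and 4 were highest. Elane was at 0 in all bleomycin KO libraries, and 10 of 12 tested markers had an unadjusted p under 0.05, all lower, in each comparison with saline WT, against 6.07% of all genes in bleomycin KO and 6.19% in bleomycin WT. None of them passed the adjusted threshold. S100a8, which encodes an abundant neutrophil cytosolic protein, averaged 448 ± 113 CPM in bleomycin KO and 289 ± 178 CPM in bleomycin WT, against 4884 ± 4949 CPM in saline WT, and its partner S100a9 averaged 570 ± 145, 343 ± 236 and 5804 ± 5129 CPM. Neutrophils themselves can make Cxcl2, and the part of this RNA in the chemokine values was not tested.

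Cxcl9, a CXCR3 ligand that depends strongly on interferon gamma, stood at 15.5, 18.5, 31.7 and 15.04 CPM in bleomycin KO. It was at 6.69, 9.45, 18.3 and 0.533 CPM in bleomycin WT, against 66.4, 216, 11.6 and 22.6 CPM in saline WT. The highest value came from 20 counts in saline WT 2, the lowest from 3 counts in bleomycin WT 4, while saline WT 3 lay inside the bleomycin WT range and saline WT 4 inside the bleomycin KO range. The log2 fold change was -3.02 ± 0.996 (SE) for bleomycin WT against saline WT (unadjusted p = 0.0080, adjusted p = 0.233). Without the 2 libraries it was -1.59 ± 0.66 (adjusted p = 0.325). It was called in that comparison by DESeq2, which called 3.43% of genes (-3.35, adjusted p = 0.0156), and by edgeR with no filter on low counts, which called 1.91% (-2.96, adjusted p = 0.0273). For bleomycin KO the log2 fold change was -1.82 ± 0.96 against saline WT (adjusted p = 0.611) and 1.20 ± 0.91 against bleomycin WT (adjusted p = 0.9998). Without the 2 libraries these values were -0.76 ± 0.60 and 0.83 ± 0.62.

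Cxcl10, the more abundant CXCR3 ligand, was measured at 222, 256, 303 and 236 CPM in bleomycin KO. It stood at 214, 102, 157 and 92.8 CPM in bleomycin WT, against 338, 130, 39.6 and 140 CPM in saline WT. Every bleomycin KO library was above every bleomycin WT library, by a narrow margin between bleomycin KO 1 and bleomycin WT 1, while the saline libraries spread over both. Cxcl10 was the only one of the 8 chemokines with no overlap between bleomycin KO and bleomycin WT, a pattern that 0.905% of all genes showed in this direction. Its log2 fold change was 0.84 ± 0.55 (SE; adjusted p = 0.9998), and 0.69 ± 0.56 without the 2 libraries, again with no overlap, as for 1.36% of genes there. The 95% interval of the 12-library value ran between -0.33 and 2.01. Against saline WT it was 0.64 ± 0.55 in bleomycin KO (adjusted p = 0.790) and -0.20 ± 0.55 in bleomycin WT (adjusted p = 0.904).

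Markers of T cells and NK cells, the targets of these ligands, had some counts in every library. In saline WT 2, where 3 counts equal 32.4 CPM, these were Lck at 43.2 CPM and Cd3d at 10.8 CPM. Ncr1, Nkg7, Gzma and Klrb1c stood at 0 in that library, which allows up to 32.4 CPM of each. The other saline libraries averaged 3.57, 56.5, 28.7 and 1.79 CPM of these genes. Only for Nkg7 was that mean above the 32.4 CPM, so the zeros of the others do not show that NK cell RNA was absent. The 12 T and NK cell markers summed to between 275 and 608 CPM in bleomycin KO, 309 and 1077 CPM in bleomycin WT, and 54.0 and 434 CPM in saline WT, and none was at 0 throughout a group. Lck, a T cell kinase, averaged 95.6 ± 24.8, 123 ± 92.3 and 57.9 ± 14.1 CPM in bleomycin KO, bleomycin WT and saline WT, and the cytotoxic granule gene Nkg7 averaged 74.0 ± 27.9, 70.6 ± 38.1 and 42.4 ± 28.7 CPM. Ifng, which encodes interferon gamma, averaged 2.63 ± 1.89, 1.75 ± 0.50 and 2.51 ± 4.43 CPM in the same groups. Without bleomycin WT 4, Lck averaged 77.4 ± 14.8 CPM in bleomycin WT (SD, n = 3). The part of these cells in the Cxcl9 and Cxcl10 values was not tested.

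The balance between the ligands for neutrophils and the ligands for T cells was taken inside each library, where it does not depend on scaling. The log2 ratio of summed Cxcl1, Cxcl2 and Cxcl3 over summed Cxcl9 and Cxcl10 counts per kilobase, with 0.5 added to each sum, was 3.76, 3.77, 3.13 and 3.65 in bleomycin KO. It was 3.81, 4.25, 3.81 and 3.90 in bleomycin WT and 2.65, 1.97, 5.59 and 3.93 in saline WT. The neutrophil-attracting ligands therefore exceeded the interferon-induced ones in all 12 libraries. The group means were 3.58 ± 0.30 in bleomycin KO, 3.94 ± 0.21 in bleomycin WT and 3.53 ± 1.59 in saline WT, or about 11.9, 15.4 and 11.6 times on the linear scale. All bleomycin KO libraries lay below all bleomycin WT libraries, the nearest pair being bleomycin KO 2 at 3.77 and bleomycin WT 1 at 3.81. That separation depended on the division by exonic length, and without it the bleomycin groups overlapped. Bleomycin WT 3 had 2270 CPM of neutrophil-attracting and 176 CPM of interferon-induced ligands. Bleomycin KO 1 had 3302 and 237 CPM, a higher ratio. The saline libraries ran past both bleomycin groups at either end. No test was made of this ratio.

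**Figure D2:**
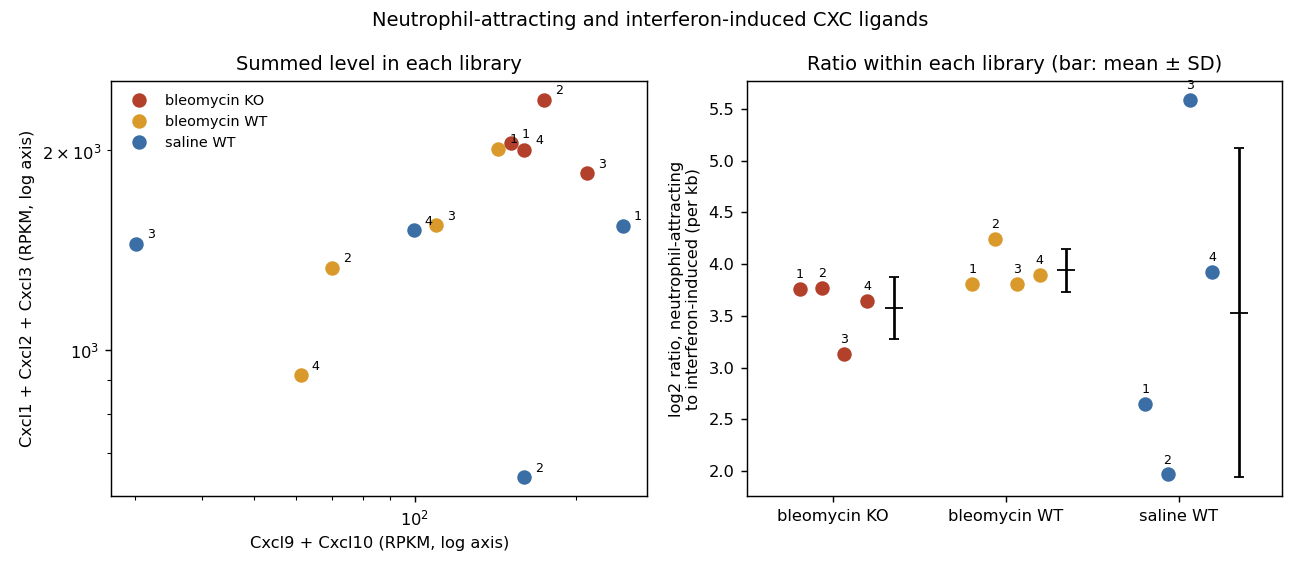
Log2 ratio of neutrophil-attracting (Cxcl1, Cxcl2, Cxcl3) over interferon-induced (Cxcl9, Cxcl10) counts per exonic kilobase in each library, bleomycin KO on the left. Numbers are replicates and bars are group means. The 8 bleomycin libraries lie between 3.13 and 4.25, and the 4 saline libraries between 1.97 and 5.59.

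The terms of that ratio moved apart in single saline libraries. Saline WT 3 had 1448 RPKM of neutrophil-attracting and 30.0 RPKM of interferon-induced ligands, whereas saline WT 2 had 643 and 160 RPKM. In bleomycin KO the sums were between 1847 and 2384 RPKM for the first set and 151 and 211 RPKM for the second. In bleomycin WT they were between 915 and 2011 RPKM and between 61.2 and 143 RPKM. Both sums in bleomycin KO thus lay mostly above those in bleomycin WT, with bleomycin WT 1 at 2011 RPKM inside the bleomycin KO range for the first set and no overlap for the second. Within the first set, Cxcl1 per kilobase was 0.373 to 0.491 of Cxcl2 in bleomycin KO, 0.209 to 0.722 in bleomycin WT and 0.151 to 1.13 in saline WT.

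Cxcl16, the transmembrane ligand of CXCR6, varied little between the bleomycin libraries, at 914, 1089, 1019 and 860 CPM in bleomycin KO. It stood at 841, 906, 953 and 809 CPM in bleomycin WT, against 747, 584, 255 and 357 CPM in saline WT. All 8 bleomycin libraries were above all 4 saline libraries, and the bleomycin groups overlapped each other. The log2 fold change was 1.003 ± 0.39 (SE) for bleomycin KO against saline WT (unadjusted p = 0.020, adjusted p = 0.457), and 0.063 under upper-quartile scaling. It was 0.86 ± 0.39 for bleomycin WT against saline WT (unadjusted p = 0.041, adjusted p = 0.326), positive under TMM scaling and -0.17 under upper-quartile scaling. Such a lack of overlap was found for 8.17% of all genes in the first of these and 4.93% in the second. Limma-voom with quality weights called Cxcl16 in both, at 1.42 (adjusted p = 0.0164) in bleomycin KO and 1.34 (adjusted p = 0.0190) in bleomycin WT, and it called 1.39% and 1.91% of genes there. Between bleomycin KO and bleomycin WT the log2 fold change was 0.15 ± 0.38 (adjusted p = 0.9998), with a 95% interval between -0.66 and 0.95.

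Macrophage and epithelial markers were spread unevenly over the groups as well. The 12 macrophage identity genes summed to between 48117 and 68621 CPM in bleomycin KO, 29710 and 51488 CPM in bleomycin WT, against 14658 to 34491 CPM in saline WT. Their most abundant members were Lyz2, for lysozyme, at 42109 ± 9216, 31009 ± 11235 and 19982 ± 7931 CPM, and C1qb, for a complement chain, at 5593 ± 661, 5719 ± 819 and 2575 ± 1462 CPM. The 11 lung epithelial markers summed to between 177 and 661 CPM in bleomycin KO, 271 and 874 CPM in bleomycin WT, against 1497 to 2352 CPM in saline WT. Sftpc, the surfactant protein C gene, averaged 123 ± 105, 274 ± 245 and 1182 ± 273 CPM and Scgb1a1, a club cell gene, 84.4 ± 54.8, 112 ± 166 and 398 ± 191 CPM in the same groups. Without bleomycin WT 4, Sftpc averaged 157 ± 94.3 CPM in bleomycin WT (SD, n = 3). Among dendritic cell markers, 9 genes that summed to between 421 and 538 CPM in bleomycin KO, 305 and 528 CPM in bleomycin WT, and 10.8 and 963 CPM in saline WT, Ccr7 averaged 262 ± 28.3, 239 ± 48.3 and 248 ± 231 CPM and Cd209a 46.2 ± 16.1, 29.4 ± 36.4 and 57.4 ± 48.3 CPM. None of the 3 lists had a member past the adjusted threshold, and their part in the Cxcl16 values was not tested.

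Cxcl13, the CXCR5 ligand, varied widely within each group, at 15.6, 108, 64.6 and 174 CPM in bleomycin KO. It stood at 42.8, 14.3, 86.9 and 3.02 CPM in bleomycin WT, against 432, 313, 71.0 and 243 CPM in saline WT. Of the saline libraries only saline WT 3 fell inside the bleomycin ranges, and the 2 bleomycin groups overlapped. The log2 fold change was -2.84 ± 0.91 (SE) for bleomycin WT against saline WT (unadjusted p = 0.0067, adjusted p = 0.228) and -2.41 ± 0.92 without the 2 libraries (adjusted p = 0.287). DESeq2 called it at -3.07 (adjusted p = 0.0242) and edgeR without the filter at -2.79 (adjusted p = 0.0058). For bleomycin KO the log2 fold change was -1.54 ± 0.87 against saline WT (adjusted p = 0.644) and 1.30 ± 0.86 against bleomycin WT (adjusted p = 0.9998). Without the 2 libraries these values were -1.48 ± 0.81 (adjusted p = 0.386) and 0.93 ± 0.84 (adjusted p = 0.99993). With 1 of the 12 libraries left out, the difference between bleomycin KO and bleomycin WT ran between 0.76 and 2.16. The 8 B cell markers summed to between 158 and 318 CPM in bleomycin KO, 155 and 970 CPM in bleomycin WT, against 241 to 11534 CPM in saline WT, the highest being saline WT 2. There Ebf1, a B lineage transcription factor also made by stromal cells, reached 11469 CPM, against a mean of 23.3 ± 6.55 CPM in the other 3 saline libraries. The B cell receptor inhibitor Cd22 averaged 77.8 ± 9.01, 116 ± 79.3 and 44.6 ± 30.7 CPM in bleomycin KO, bleomycin WT and saline WT. Most of its list went the other way in bleomycin KO against saline WT. There 7 of the 8 B cell markers had log2 fold changes below 0, against 48.3% of all genes. In bleomycin WT against saline WT 4 of 8 were below 0, against 47.1%. The part of these cells in the Cxcl13 values was not tested.

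Cxcl12, which stromal and endothelial cells are known to make, was near the low end, at 13.9, 12.9, 13.5 and 27.8 CPM in bleomycin KO. It stood at 17.4, 9.45, 27.5 and 1.78 CPM in bleomycin WT, against 25.8, 0, 19.99 and 32.4 CPM in saline WT. The groups overlapped in every comparison, and the 0 in saline WT 2 again allows up to 32.4 CPM. The log2 fold changes were -0.37 ± 0.80 (SE) for bleomycin KO against saline WT (adjusted p = 0.931), -0.64 ± 0.80 for bleomycin WT against saline WT (adjusted p = 0.748) and 0.27 ± 0.79 for bleomycin KO against bleomycin WT (adjusted p = 0.9998). The last was -0.08 ± 0.45 without the 2 libraries. The 10 fibroblast and stromal markers summed to between 615 and 1172 CPM in bleomycin KO, 694 and 1118 CPM in bleomycin WT, against 368 to 1199 CPM in saline WT. The 10 endothelial markers summed to between 84.3 and 184 CPM, 96.7 and 807 CPM, and 216 and 473 CPM in the same groups, bleomycin WT 4 being the highest library. Gsn and Col3a1 were the most abundant stromal markers, at 529 ± 99.6, 562 ± 158 and 482 ± 211 CPM and at 115 ± 83.5, 116 ± 25.0 and 15.8 ± 19.0 CPM. Inmt went the other way, at 27.3 ± 13.8, 18.1 ± 7.31 and 183 ± 124 CPM. Against saline WT, 7 of 10 stromal markers had log2 fold changes above 0 in bleomycin KO and 6 of 10 in bleomycin WT. The shares over all genes were 51.7% and 52.9%. Calcrl and Pecam1 led the endothelial list, at 47.1 ± 5.74, 151 ± 218 and 45.0 ± 34.3 CPM and at 27.2 ± 7.34, 17.5 ± 10.7 and 61.7 ± 51.4 CPM. Without bleomycin WT 4, Calcrl averaged 42.3 ± 14.9 CPM in bleomycin WT (SD, n = 3). Fitted log2 fold changes against saline WT were below 0 for 10 of 10 endothelial markers in bleomycin KO and 7 of 10 in bleomycin WT. Across all genes 48.3% and 47.1% were below 0, and no endothelial marker passed the adjusted threshold. The part of stromal and endothelial cells in the Cxcl12 values was not tested.

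**Figure D3:**
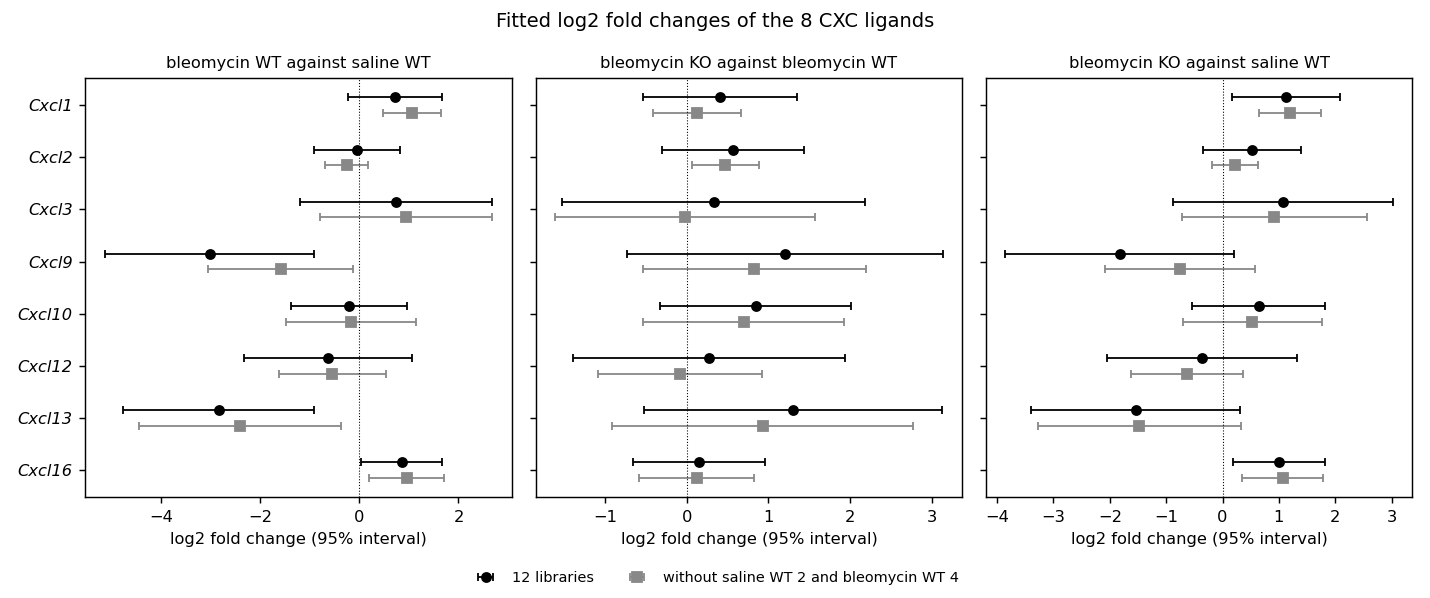
Log2 fold change of each CXC chemokine in 3 comparisons, from edgeR in 12 libraries and without saline WT 2 and bleomycin WT 4, with 95% intervals. The horizontal scale differs between panels. In bleomycin KO against bleomycin WT the 12-library values run between 0.15 for Cxcl16 and 1.30 for Cxcl13, and every interval there includes 0.

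Side by side, the log2 fold changes of bleomycin KO against bleomycin WT were above 0 for 8 of 8 chemokines in 12 libraries and for 6 of 8 without saline WT 2 and bleomycin WT 4, when Cxcl3 and Cxcl12 were below 0. Across all genes 49.3% were above 0 in the 12-library fit. Bleomycin WT 4 was the lowest library of its group for each of the 8, so the values share that library. Against saline WT, Cxcl9, Cxcl12 and Cxcl13 were below 0 in both bleomycin groups and Cxcl1, Cxcl3 and Cxcl16 above 0 in both, except that upper-quartile scaling put Cxcl1 and Cxcl16 below 0 in bleomycin WT. Cxcl2 and Cxcl10 were above 0 in bleomycin KO and below 0 in bleomycin WT, where limma-voom with quality weights put both above 0. The median over all genes was -0.01 for bleomycin KO against bleomycin WT, 0.08 for bleomycin WT and 0.04 for bleomycin KO, each set against saline WT.

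As shares of the summed counts per kilobase of the 8 genes, Cxcl2 held 53.5 ± 3.17% in bleomycin KO, 51.6 ± 7.04% in bleomycin WT and 52.8 ± 22.3% in saline WT. Cxcl1 held 22.9 ± 1.81%, 23.3 ± 7.74% and 16.5 ± 6.78% in the same groups. Cxcl16 held 13.4 ± 1.28%, 18.0 ± 4.58% and 10.1 ± 5.02%, and Cxcl10 6.27 ± 1.17%, 4.79 ± 0.75% and 5.49 ± 3.17%. Cxcl13 made up 2.89 ± 2.17% in bleomycin KO, 1.51 ± 1.51% in bleomycin WT and 12.8 ± 7.33% in saline WT, where the lowest library was at 3.77%. Cxcl2 and Cxcl1 together therefore made up most of the chemokine RNA of this set in every group.

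**Figure D4:**
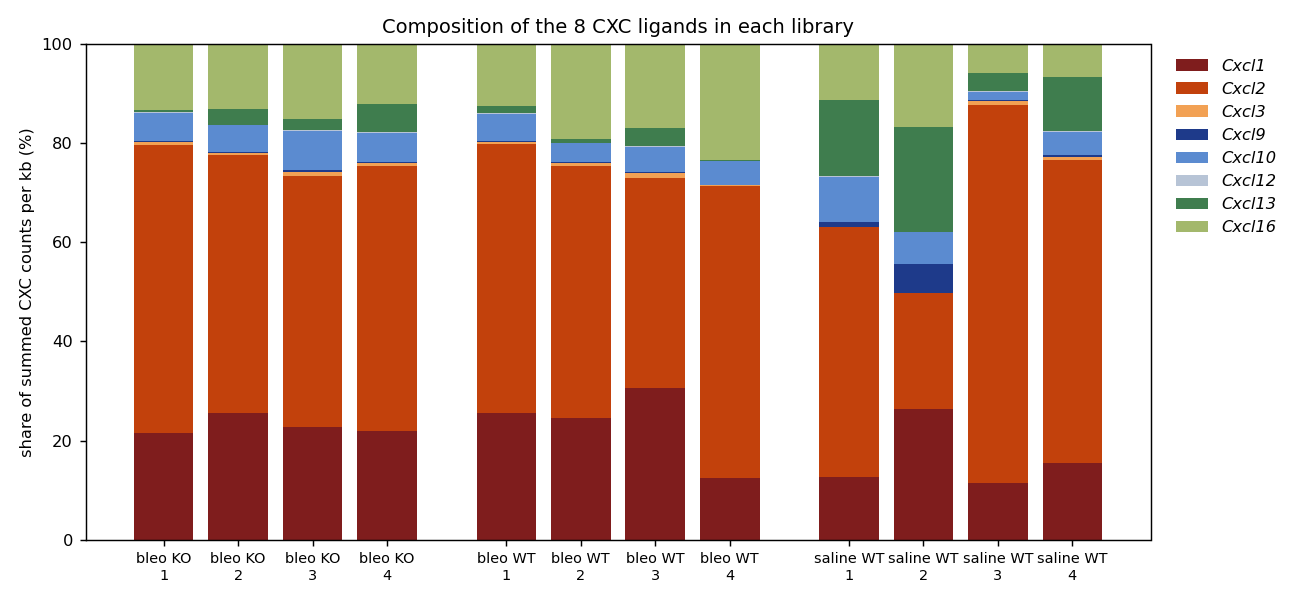
Share (%) of each CXC chemokine in the summed counts per exonic kilobase of the 8 genes, 1 bar per library, bleomycin KO on the left. Cxcl2 takes 50.7% to 58.0% in the bleomycin KO libraries and 23.4% to 76.2% in the saline WT libraries.

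Other CXC ligands of the mouse, Pf4 apart, were scarce where named here. Of 7 such genes 5 could be tested, since Cxcl5 and Cxcl17 did not pass the filter, and 0 were called in each comparison. Their median log2 fold changes were 0.31 for bleomycin KO against bleomycin WT, -1.90 for bleomycin WT against saline WT and -1.58 for bleomycin KO against saline WT. Cxcl11, another CXCR3 ligand, averaged 0.299 ± 0.347 CPM in bleomycin KO and 0.553 ± 0.484 CPM in bleomycin WT, against 6.78 ± 8.95 CPM in saline WT, with log2 fold changes against saline WT of -4.66 ± 1.47 (SE; adjusted p = 0.335) and -3.77 ± 1.41 (adjusted p = 0.267) in the 2 bleomycin groups. Ppbp, a platelet CXCR2 ligand, averaged 3.74 ± 2.99, 2.98 ± 2.10 and 9.81 ± 7.38 CPM in bleomycin KO, bleomycin WT and saline WT. Pf4, the platelet factor CXCL4 that macrophages can also make, was the most abundant of these at 218 ± 85.8, 278 ± 227 and 356 ± 226 CPM.

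Of 8 receptors of these ligands 7 were tested, all but Ackr1, and 0 were called in each comparison. Cxcr2, the receptor of CXCL1, CXCL2 and CXCL3 and itself a neutrophil marker, averaged 42.1 ± 20.5 CPM in bleomycin KO and 23.3 ± 17.6 CPM in bleomycin WT, against 191 ± 210 CPM in saline WT. Its log2 fold change was -3.07 ± 1.21 (SE; adjusted p = 0.279) for bleomycin WT against saline WT and -2.22 ± 1.17 (adjusted p = 0.613) for bleomycin KO against saline WT. Cxcr1 averaged 2.64 ± 1.27, 1.70 ± 1.88 and 7.86 ± 10.9 CPM in bleomycin KO, bleomycin WT and saline WT. Cxcr6, the receptor of CXCL16, averaged 34.6 ± 13.3, 26.1 ± 28.5 and 7.75 ± 7.31 CPM in these groups. The bleomycin KO libraries did not overlap with saline WT for Cxcr6 (log2 fold change 1.91 ± 1.02, adjusted p = 0.625), as for 8.17% of all genes in this direction, and saline WT 2 had 0 counts, which allows up to 32.4 CPM. Cxcr4, the receptor of CXCL12, averaged 81.9 ± 21.5, 114 ± 48.9 and 75.4 ± 63.5 CPM.

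NF-kB response genes were read beside Cxcl1, Cxcl2 and Cxcl3, which macrophages make after signals that act through NF-kB. Of 20 such genes, 0 were called in each comparison. Their log2 fold changes were above 0 for 16 of 20 in bleomycin KO against saline WT (median 0.50) and 15 of 20 in bleomycin WT against saline WT (median 0.51), against 51.7% and 52.9% of all genes. The list summed to 3740 CPM in saline WT 2, against 11064, 13191 and 12268 CPM in the other saline libraries. Without saline WT 2 and bleomycin WT 4, means in bleomycin WT went both ways against saline WT. Tnf (418 against 537 CPM) and Cd83 (1972 against 2130 CPM) were lower, while Il1a (512 against 203 CPM) and Ptgs2 (598 against 258 CPM) stayed higher. For bleomycin KO against bleomycin WT 11 of 20 were above 0 (median 0.13). Il1a, the cytokine interleukin 1 alpha, averaged 715 ± 64.4 CPM in bleomycin KO and 467 ± 162 CPM in bleomycin WT, against 152 ± 107 CPM in saline WT. No libraries overlapped between either bleomycin group and saline WT for Il1a, with log2 fold changes of 2.17 ± 0.66 (SE; adjusted p = 0.310) in bleomycin KO and 1.56 ± 0.65 (adjusted p = 0.296) in bleomycin WT. That upward lack of overlap was found for 8.17% of all genes in bleomycin KO and 4.93% in bleomycin WT. Ptgs2, which encodes cyclooxygenase 2, averaged 683 ± 190, 504 ± 190 and 201 ± 115 CPM, and Il6, for interleukin 6, 131 ± 28.3, 145 ± 142 and 35.8 ± 37.9 CPM in the same groups. The inhibitor gene Nfkbia averaged 2598 ± 232, 1835 ± 487 and 1610 ± 318 CPM, while Rela, an NF-kB subunit, averaged 98.3 ± 25.1, 189 ± 113 and 136 ± 34.2 CPM. Bleomycin WT 4 stood at 353 CPM for Il6 and 357 CPM for Rela, and the other 3 bleomycin WT libraries averaged 75.5 ± 35.0 and 133 ± 24.4 CPM (SD, n = 3).

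Of 25 interferon-gamma response genes, 0 were called in each comparison, with median log2 fold changes of 0.13 for bleomycin KO against bleomycin WT, and, set against saline WT, 0.14 for bleomycin WT and 0.37 for bleomycin KO. In bleomycin KO against bleomycin WT 3 of 25 had no overlap, all higher, against 0.905% of all genes. Gbp3, a guanylate-binding protein, was one of these, at 87.9 ± 12.8 CPM in bleomycin KO and 48.5 ± 28.2 CPM in bleomycin WT, against 43.0 ± 8.41 CPM in saline WT. Its relative Gbp5 averaged 17.2 ± 8.08, 59.3 ± 93.3 and 3.54 ± 5.65 CPM, and Gbp7 99.2 ± 19.0, 217 ± 276 and 66.0 ± 24.3 CPM. Jak2, the kinase bound to the interferon gamma receptor, averaged 76.8 ± 13.9, 159 ± 159 and 47.5 ± 27.5 CPM. Bleomycin WT 4 stood at 199 CPM for Gbp5, 631 CPM for Gbp7 and 396 CPM for Jak2. The other 3 bleomycin WT libraries averaged 12.7 ± 6.11, 79.0 ± 13.1 and 80.6 ± 22.1 CPM for these genes (SD, n = 3).

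The genes most like each chemokine over the 12 libraries were found by the mean absolute difference of centred log2 CPM among 9289 genes of at least 10 CPM. Ola1 was near Cxcl16, at 0.19, where the median over all genes was 1.10. Ola1 averaged 41.4 ± 6.74 CPM in bleomycin KO and 37.7 ± 5.76 CPM in bleomycin WT, against 19.98 ± 4.21 CPM in saline WT. Cxcl10 was closest to the chemokine gene Ccl4, at 0.38, and to Ms4a7, a macrophage membrane gene, at 0.43, against a median of 1.20. Ccl4 averaged 589 ± 149, 288 ± 170 and 399 ± 127 CPM in bleomycin KO, bleomycin WT and saline WT. Cxcl13 was closest to Cd163, the haptoglobin-haemoglobin scavenger receptor, at 0.59, and to Cbr2 at 0.72, against a median of 1.99. Cd163 averaged 77.0 ± 58.8, 19.5 ± 9.84 and 134 ± 45.1 CPM in these groups. Cxcl1 was closest to Hpf1 (0.23) and Gm12543 (0.25), and Cxcl2 to the translation release factor gene Etf1 (0.18) and Idh3g (0.23). Cxcl3, Cxcl9 and Cxcl12 were closest to Kti12 (0.26) and Xpo4 (0.28), to Zc3hc1 (0.49) and Mesd (0.50), and to Dgcr6 (0.29) and Gm14005 (0.30). The libraries share depth and scaling, so these likenesses are descriptions.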

How the data were processed

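RNA was counted per gene in 12 libraries. Per the labels' protocols, 2 ng RNA was amplified with a SMART-Seq kit, 150 pg cDNA went into Nextera XT libraries, and single-end 50-base reads were sequenced; the kit does not mark strand, so antisense reads cannot be told apart. The authors deposited raw counts per Ensembl gene. The submitters' processing notes name GSNAP, limma and Partek with GRCm38 and mm10, and the sources used here do not say how reads with several matches were counted. A design text on other cells was not used.

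CPM used TMM scaling in edgeR 4.0.16 (R 4.3.3), and RPKM used the deposited exonic sizes. The test was edgeR's robust quasi-likelihood test on 12 libraries in 1 fit by group, with filterByExpr (16679 of 52636 genes) and Benjamini-Hochberg adjustment over those genes. It was tested on simulated data with changes larger than most of those reported here, so its power for smaller changes was not measured. The common biological coefficient of variation, the relative spread between libraries of a group beyond counting noise, was 0.862. DESeq2 1.42.0 and limma 3.58.1 (voom) were alternatives. Every pair of libraries differed beyond counting noise. Counting floors are 3 counts and cover counting error only.

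The members, lists and tests were chosen with earlier results of these data known. Named were the 8 chemokines, the 2 members of each pathway list with the smallest p per comparison, the 2 most abundant of each list of other cells, the 2 nearest genes of each chemokine, and Il4ra; 1 of the nearest genes is not reported here. All 153 listed symbols matched.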

Additional observations from a re-analysis of the deposited data

Results flagged for a closer look

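Among 27 sets of 4 libraries examined, 3 held a library far from the other 3 of its group, and chance gives about 1 in 20. Cxcl1 stood at 744 CPM in bleomycin KO 2, above the 527 to 549 CPM of the other bleomycin KO libraries. Cxcl2 stood at 562 CPM in saline WT 2, the library of 60598 counts, below the 2234 to 2317 CPM of the other saline WT libraries. Cxcl12 stood at 27.8 CPM in bleomycin KO 4, above the 12.9 to 13.9 CPM of the other bleomycin KO libraries.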

How the results depend on the processing

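The count of chemokines called stayed at 0 of 8 in all 3 comparisons with RLE or upper-quartile scaling, with limma-voom, with only the 2 groups compared, without saline WT 2 and bleomycin WT 4, and when any of the 12 libraries was left out (range 0 to 0). The exceptions were in bleomycin WT against saline WT, with 2 called by DESeq2, 2 without the filter and 1 by limma-voom with quality weights, and in bleomycin KO against saline WT, with 1 by limma-voom with quality weights. The cause was not tested. Replicate numbers did not pair the libraries (correlations of deviations between -0.19 and 0.06). With the replicate block 0 of 8 were called in each comparison, and Cxcl2 in bleomycin WT against saline WT turned to 0.017.

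In bleomycin WT against saline WT the median of all genes was 0.08 in the TMM fit, -0.09 with RLE and -0.31 with upper-quartile scaling. The DESeq2 fit had a median of -1.16, but over a different set of genes. That value therefore does not show the effect of scaling alone. Upper-quartile scaling turned Cxcl1 to -0.21 and Cxcl16 to -0.17, both above the upper-quartile median of -0.31. Quality weights turned Cxcl2 to 0.025 and Cxcl10 to 0.79, and limma-voom turned Cxcl10 to 0.25. With 1 library left out Cxcl2 ran between -0.26 and 0.19 and Cxcl10 between -0.43 and 0.51. In bleomycin KO against bleomycin WT quality weights turned Cxcl1 to -0.025 and Cxcl12 to -0.19, and without saline WT 2 and bleomycin WT 4 Cxcl3 was -0.023 and Cxcl12 -0.084. With 1 library left out Cxcl3 ran between -0.037 and 0.76 and Cxcl12 between -0.094 and 0.82.

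The difference of the log2 ratio of neutrophil-attracting to interferon-induced ligands moved by less than the spread between libraries under every alternative run. With 1 library left out it was -0.43 to -0.22 for bleomycin KO against bleomycin WT, -0.11 to 1.09 for bleomycin WT against saline WT and -0.48 to 0.73 for bleomycin KO against saline WT. Depth limits saline WT 2, where Cxcl3 and Cxcl12 had 0 counts and 3 counts equal 32.4 CPM.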

Other observations

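Cxcl9 relative to Cxcl10 within a library, per exonic kilobase, was a pattern noticed after the values were seen. It was 0.0368, 0.0379, 0.0550 and 0.0336 in bleomycin KO replicates 1 to 4. It was 0.0164, 0.0490, 0.0611 and 0.0030 in bleomycin WT and 0.103, 0.877, 0.154 and 0.0851 in saline WT. All 8 bleomycin libraries lay below all 4 saline libraries, and this ratio does not depend on library scaling. The value in saline WT 2 rests on 20 counts of Cxcl9 and 12 of Cxcl10, and that in bleomycin WT 4 on 3 counts of Cxcl9. No test was made of it.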
